A study of Arabidopsis thaliana with 12 samples.

Results

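Aquaporins are membrane channels that let water, and in some members small neutral solutes, cross a membrane. The 35 aquaporin genes of Arabidopsis thaliana were taken by locus identifier from the deposited expression tables, which list 32833 loci. They comprise 13 plasma membrane intrinsic proteins (PIP), 10 tonoplast intrinsic proteins (TIP), 9 NOD26-like intrinsic proteins (NIP) and 3 small basic intrinsic proteins (SIP). Gene names follow the hyphenated protein names of UniProt, so that PIP1-1 is the gene also written PIP1;1. RNA was sequenced from whole seedlings that were 10 days old and had been kept on a cycle of 16 h light and 8 h dark. All treatments lasted 3 h. The 12 libraries fell into 4 groups of 3 biological replicates: wild-type Col-0 given white light with added UV-B (5 µmol per m2 and s), uvr8 mutant seedlings under the same UV-B, Col-0 given 50 µM abscisic acid (ABA) in white light, and Col-0 in white light with a mock treatment. Both UV-B groups were mock-treated as well. UV-B groups were assigned from the sample titles, because their treatment label names both light conditions without saying which one was used.

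UVR8 is the UV-B photoreceptor, and ABA is a hormone of water deficit. The labels do not name the uvr8 allele, and a uvr8 group in white light is not analysed here, so an effect of the genotype by itself and a missing response to UV-B cannot be told apart. UVR8 transcript was 20.8, 23.6 and 21.1 TPM in the 3 uvr8 libraries, 66.9, 73.8 and 71.1 TPM in Col-0 under UV-B, 95.2, 90.0 and 98.8 TPM with ABA and 106, 107 and 107 TPM in Col-0 in white light, so the mutant libraries were the lowest in every case. Levels are in TPM, a share of each library's transcripts that is scaled by transcript length. A TPM table keeps no read depth, so no counting interval is given, and 18557 to 19214 loci per library reached 1 TPM. The TPM values of a library sum to a fixed total. The median of all genes tested lay at -0.15 under UV-B, at 0.20 in uvr8 against Col-0 under UV-B and at -0.24 with ABA on the log2 scale. A second scaling that recentres the libraries with a trimmed mean of log ratios is given beside the member counts.

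PIPs sit mainly in the plasma membrane, where PIP2 proteins are efficient water channels and PIP1 proteins commonly need a PIP2 partner to reach the membrane. TIPs sit in the tonoplast around the vacuole, and several also pass urea, ammonia or hydrogen peroxide. NIPs include the boric acid channels that carry boron into roots and young tissue, and SIPs are found in the endoplasmic reticulum. Water flow through PIPs is known to be set by phosphorylation, pH and movement in and out of the membrane as well as by transcript level, and only transcript level was measured here.

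Of the 35 genes, 27 reached at least 1 TPM in at least 3 libraries and were tested: all 13 PIPs, 5 TIPs, 6 NIPs and all 3 SIPs. Each of the 27 reached 1 TPM in libraries of at least 3 of the groups. TIP1-3, TIP5-1, NIP4-1 and NIP4-2, which are known from pollen, were listed at 0 in all 12 libraries. The seed vacuole aquaporins TIP3-1 and TIP3-2 were listed at 0 in 11 and 8 libraries and did not exceed 0.06 and 0.19 TPM. TIP2-3 reached at most 0.35 TPM, and NIP2-1, just outside the filter, reached 1.25 and 1.23 TPM in 1 UV-B and 1 white-light library. Just above the filter, TIP4-1 ranged between 0.49 and 1.44 TPM and NIP3-1 between 0.63 and 2.70 TPM.

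A few members carried most of the family's transcript. TIP1-2 (AT3G26520), a tonoplast water channel, ranked first in all 4 groups, with 1029, 1066 and 1034 TPM in Col-0 under UV-B, 1248, 1212 and 1226 TPM in uvr8 under UV-B, 1275, 1015 and 1029 TPM with ABA and 1548, 1453 and 1332 TPM in white light. It made up 25.9% of the family's TPM in Col-0 under UV-B, 25.2% in uvr8, 14.8% with ABA and 25.7% in white light. By the mean over all 12 libraries the plasma membrane channel PIP2-7 came next, followed by TIP2-1, PIP2-1 and PIP2-6, but the order differed between groups. PIP1-2 ranked 2nd in Col-0 under UV-B, where PIP2-7 ranked 4th. PIP2-1 ranked 2nd with ABA, with 14.5% of the family, against rank 7 and 7.0% in white light, and ranked 6th in Col-0 and 7th in uvr8 under UV-B. TIP2-1 ranked 8th with ABA, 5th in Col-0 under UV-B and 3rd in uvr8 under UV-B, against 2nd in white light.

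Some neighbours in these orders did not separate. In white light the PIP1-2 libraries (507, 466 and 451 TPM) overlapped those of TIP1-1 (508, 493 and 493 TPM), and PIP2-6 (422, 411 and 418 TPM) overlapped PIP2-1 (441, 349.8 and 381 TPM). TIP2-1 and PIP2-7, ranked next to each other in white light, also overlapped, at 739, 704 and 727 TPM and 714, 676 and 677 TPM. TIP1-2 stood clear of every other member in white light. With ABA the ranges of TIP1-2 and PIP2-1 overlapped, with PIP2-1 at 1151, 1058 and 1037 TPM. In Col-0 under UV-B, PIP1-2 (404.6 to 439.8 TPM) overlapped PIP2-6 (389.1 to 408.5 TPM) and TIP2-1 (335.8 to 406.1 TPM). It lay above PIP2-7 there (379 to 401 TPM). In uvr8 under UV-B, TIP2-1 (545.6 to 591.4 TPM) overlapped PIP2-7 (577.2 to 589.7 TPM).

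**Figure D1:**
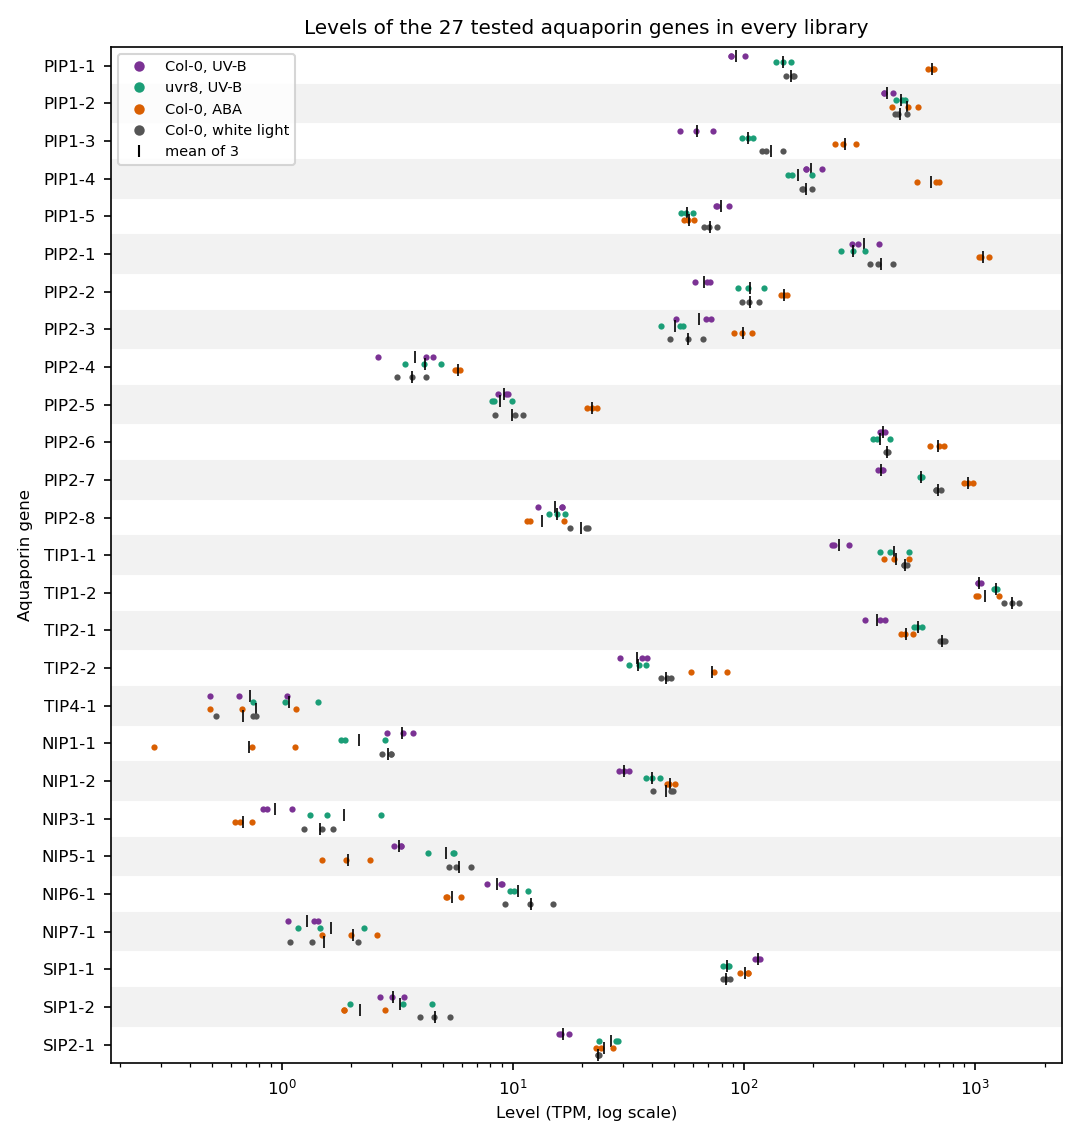
Level of each of the 27 tested aquaporin genes in every library, in TPM on a log axis, with a point per library and a bar at the mean of 3 libraries in each of the 4 groups. Most PIP genes lie farthest right with ABA, while TIP1-1, TIP2-1 and PIP2-7 lie farthest left in Col-0 under UV-B.

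The stretches of 300 bases before the annotated gene start are shown for the 3 members with the largest ABA difference and for the tested members in which the letters ACGTG occurred. ACGTG is the core of the element bound by ABA-related bZIP factors, and it was searched on both strands together with CACGTG, the G-box, which contains it. Sequences and gene positions are from RefSeq's TAIR10.1, with sequences written 5′ to 3′ on the gene's own strand, with matches to ACGTG on either strand in capitals. PIP1-1 was read at chr3:22732943-22733242 on the plus strand, PIP1-4 at chr4:187681-187980 on the minus strand, PIP2-1 at chr3:19805731-19806030 on the minus strand, TIP1-1 at chr2:15444994-15445293 on the plus strand and SIP1-1 at chr3:1074245-1074544 on the minus strand.
PIP1-1: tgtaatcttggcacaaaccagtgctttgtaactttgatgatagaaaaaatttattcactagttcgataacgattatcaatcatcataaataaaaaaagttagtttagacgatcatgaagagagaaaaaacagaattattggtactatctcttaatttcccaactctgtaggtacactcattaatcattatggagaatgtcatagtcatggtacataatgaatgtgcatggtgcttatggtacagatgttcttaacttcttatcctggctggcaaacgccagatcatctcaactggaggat
PIP1-4: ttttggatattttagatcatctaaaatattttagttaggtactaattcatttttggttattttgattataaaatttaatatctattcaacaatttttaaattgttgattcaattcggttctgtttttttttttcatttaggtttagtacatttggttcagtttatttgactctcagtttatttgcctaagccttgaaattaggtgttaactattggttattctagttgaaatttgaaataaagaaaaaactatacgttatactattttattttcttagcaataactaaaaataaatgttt
PIP2-1: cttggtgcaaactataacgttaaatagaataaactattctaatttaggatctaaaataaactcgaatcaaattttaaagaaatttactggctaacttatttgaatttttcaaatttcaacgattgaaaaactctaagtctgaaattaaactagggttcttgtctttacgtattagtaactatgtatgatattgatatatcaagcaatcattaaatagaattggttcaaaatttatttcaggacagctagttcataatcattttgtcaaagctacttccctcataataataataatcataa
TIP1-1: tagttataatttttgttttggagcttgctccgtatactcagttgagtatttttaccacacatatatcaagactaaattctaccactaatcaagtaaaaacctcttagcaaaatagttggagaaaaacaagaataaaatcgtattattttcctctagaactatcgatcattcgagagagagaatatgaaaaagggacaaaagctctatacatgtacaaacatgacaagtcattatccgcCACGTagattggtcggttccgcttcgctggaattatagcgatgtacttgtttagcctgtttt
SIP1-1: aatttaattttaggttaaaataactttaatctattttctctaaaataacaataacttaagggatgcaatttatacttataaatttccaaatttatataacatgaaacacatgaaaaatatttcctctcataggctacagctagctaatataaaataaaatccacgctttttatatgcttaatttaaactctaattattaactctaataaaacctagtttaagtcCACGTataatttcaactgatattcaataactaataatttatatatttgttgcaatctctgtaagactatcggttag
ACGTG occurred in the window of 25.6% of 27443 protein-coding genes and of 4 of the 35 members, TIP1-1, TIP3-1, TIP5-1 and SIP1-1. It occurred in 0 of the 13 PIPs. The capitals lie 62 to 58 bases before the start of TIP1-1 and 76 to 72 bases before that of SIP1-1. CACGTG occurred in 7.1% of all these windows and in 0 of the 35 members. These counts describe letters in a fixed window before an annotated start, and elements elsewhere were not searched.

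Some marker genes of root, leaf and guard cells differed between the groups as well. Root markers summed to 242 to 300.0 TPM in Col-0 under UV-B, 290 to 309 TPM in uvr8, 363 to 484 TPM with ABA and 335 to 368 TPM in white light. PYK10 alone had a mean of 220 TPM in Col-0 under UV-B, 234 TPM in uvr8 and 280 TPM in white light. The sums of those groups therefore rest mostly on 1 gene. Of the 15 root markers, CASP1, CASP2, MYB36, COBL9, EXPA7, SKOR and PRP3 stayed under 1 TPM in all 12 libraries, EXPA7 at 0 in each. Of the 8 tested, 4 fell under UV-B, 4 were higher in uvr8 than in Col-0 under UV-B, and 2 rose and 5 fell with ABA. Over all genes, 27.8% were lower and 12.3% higher under UV-B, 32.8% higher and 11.1% lower in uvr8, and 15.2% higher and 39.4% lower with ABA. After recentring, PYK10 and SHR did not pass under UV-B, NRT2.1 and SHR did not pass in uvr8, and SCR passed as lower in uvr8. Leaf markers summed to 9004 to 9940 TPM under UV-B, 6953 to 8197 TPM in uvr8, 5531 to 6790 TPM with ABA and 6902 to 8285 TPM in white light. Of 7 leaf markers, 4 rose and 1 fell under UV-B, 3 were lower in uvr8 than in Col-0 under UV-B, and 5 fell with ABA. After recentring, PSAD1 no longer passed as lower under UV-B, and RCA and CA1 passed as higher there. RBCS1A and RCA then also passed as lower in uvr8 than in Col-0 under UV-B (adjusted p = 0.0251 and 0.004). Guard cell markers summed to 54.7 to 63.1 TPM under UV-B, 58.9 to 67.4 TPM in uvr8, 35.9 to 53.6 TPM with ABA and 55.5 to 60.3 TPM in white light, and with ABA 1 of the 5 rose and 3 fell. The 5 seed markers summed to at most 6.18 TPM in any library. The part of these shifts in the aquaporin differences was not tested.

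The UV-B comparison in Col-0 asked how the family's transcripts stood after 3 h of added UV-B. Of the 27 members tested, 12 (44.4%) fell and 1 (3.7%) rose at an adjusted p under 0.05 in limma fitted over 19922 genes, whereas over all genes 27.8% were lower and 12.3% higher. The members that fell were 4 of 13 PIPs, 4 of 5 TIPs, 3 of 6 NIPs and 1 of 3 SIPs, with log2 differences between -1.05 and -0.42. Their median over all 27 members was -0.37, against -0.15 for all genes. After recentring, 10 members were lower and 2 higher, against 17.4% and 18.8% of all genes, and 11 calls held on both scales. These were whole seedlings, in which fewer cells of a type and less RNA per cell cannot be told apart.

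Of the 5 tonoplast channels tested out of 10, 4 fell under UV-B, and 3 of these calls held after recentring. TIP1-1 (AT2G36830, chr2:15445294-15446621, plus strand), a water channel of the vacuoles of growing cells, had 286, 245 and 239.9 TPM under UV-B, against 508, 493 and 493 TPM in white light. TIP2-1 (AT3G16240, chr3:5505360-5507050, plus strand), which passes water and ammonia, had 336, 406 and 387 TPM under UV-B, against 739, 704 and 727 TPM in white light. Neither gene's groups overlapped, and the log2 differences were -0.96 ± 0.11 (adjusted p = 4.37e-05) for TIP1-1 and -0.95 ± 0.08 (adjusted p = 1.79e-06) for TIP2-1. TIP1-2 fell as well, with a log2 difference of -0.47 ± 0.09 (adjusted p = 0.0013), and TIP4-1 did not pass at 0.03 ± 0.20. TIP2-2 passed at -0.42 ± 0.13 with an adjusted p of 0.023, but not after recentring (adjusted p = 0.131) nor without white-light replicate 1 (0.0685), white-light replicate 3 (0.062) or UV-B replicate 3 (0.101). The exons of TIP2-1 overlap those of genes on the other strand by 120 and 46 bases, and the sources used here do not say whether counting used strand.

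Among the PIPs, 4 genes fell and the other 9 did not pass. PIP1-3 (AT1G01620, chr1:225665-227543, minus strand) had 52.9, 73.5 and 62.3 TPM under UV-B, against 147, 125 and 119.7 TPM in white light, with a log2 difference of -1.05 ± 0.12 (adjusted p = 3.18e-05). PIP1-1 (AT3G61430, chr3:22733243-22735394, plus strand) had 101, 88.0 and 88.2 TPM under UV-B, against 164, 152 and 163 TPM in white light, with a log2 difference of -0.78 ± 0.08 (adjusted p = 7.41e-06). PIP2-7 (AT4G35100, chr4:16708361-16710407, plus strand) had 379, 401 and 396 TPM under UV-B, against 714, 676 and 677 TPM in white light, with a log2 difference of -0.81 ± 0.06 (adjusted p = 4.86e-07). All UV-B libraries lay under all white-light libraries in these genes, and PIP2-2 followed at -0.66 ± 0.10. The abundant PIP1-2 (AT2G45960, chr2:18910081-18911982, plus strand), linked to carbon dioxide entry into leaf cells, had 439.8, 405 and 405 TPM under UV-B and 507, 466 and 451 TPM in white light, a difference of -0.19 ± 0.09 that did not pass (adjusted p = 0.121). Nor did PIP2-1 pass, with 312, 383 and 294 TPM under UV-B and 441, 349.8 and 381 TPM in white light (-0.25 ± 0.12). PIP2-6 (AT2G39010, chr2:16291280-16294101, plus strand) had 397, 409 and 389 TPM under UV-B and 422, 411 and 418 TPM in white light (-0.07 ± 0.07). The UV-B and white-light ranges of PIP2-1 overlapped, and those of PIP2-6 did not. PIP1-5 passed as higher after recentring, where its difference was 0.32 (adjusted p = 0.029), and stood at 0.15 on the deposited scale.

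The NIP calls were all downward and the SIP calls split. NIP5-1 (AT4G10380, chr4:6431161-6435396, minus strand), the boric acid channel of boron-limited roots, had 3.06, 3.27 and 3.28 TPM under UV-B, against 6.56, 5.30 and 5.67 TPM in white light, with a log2 difference of -0.70 ± 0.14 (adjusted p = 0.00215). NIP1-2 (AT4G18910, chr4:10366044-10368510, plus strand) had 31.8, 28.8 and 30.2 TPM under UV-B, against 49.5, 40.2 and 48.3 TPM in white light, with a log2 difference of -0.58 ± 0.09 (adjusted p = 0.000284). In both genes the groups did not overlap. NIP6-1, a boric acid channel of stem nodes, passed at -0.43 with an adjusted p of 0.0353, but not after recentring (0.18) nor without any single UV-B library or white-light replicate 1 or 2 (0.054 to 0.142), and neither with no filter on low values (0.0533) nor in a fit of the 2 groups alone (0.0568). SIP1-1 was the only member that rose on the deposited scale, with 117, 116 and 112 TPM under UV-B, against 81.2, 87.0 and 84.0 TPM in white light, and a log2 difference of 0.45 ± 0.06 (adjusted p = 0.00011). SIP2-1 moved the other way, with 17.6, 15.9 and 16.1 TPM under UV-B, against 23.4, 23.5 and 23.4 TPM in white light, and a log2 difference of -0.48 ± 0.09 (adjusted p = 0.00149). The exons of SIP2-1 overlap genes on the other strand by 147 and 21 bases.

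**Figure D2:**
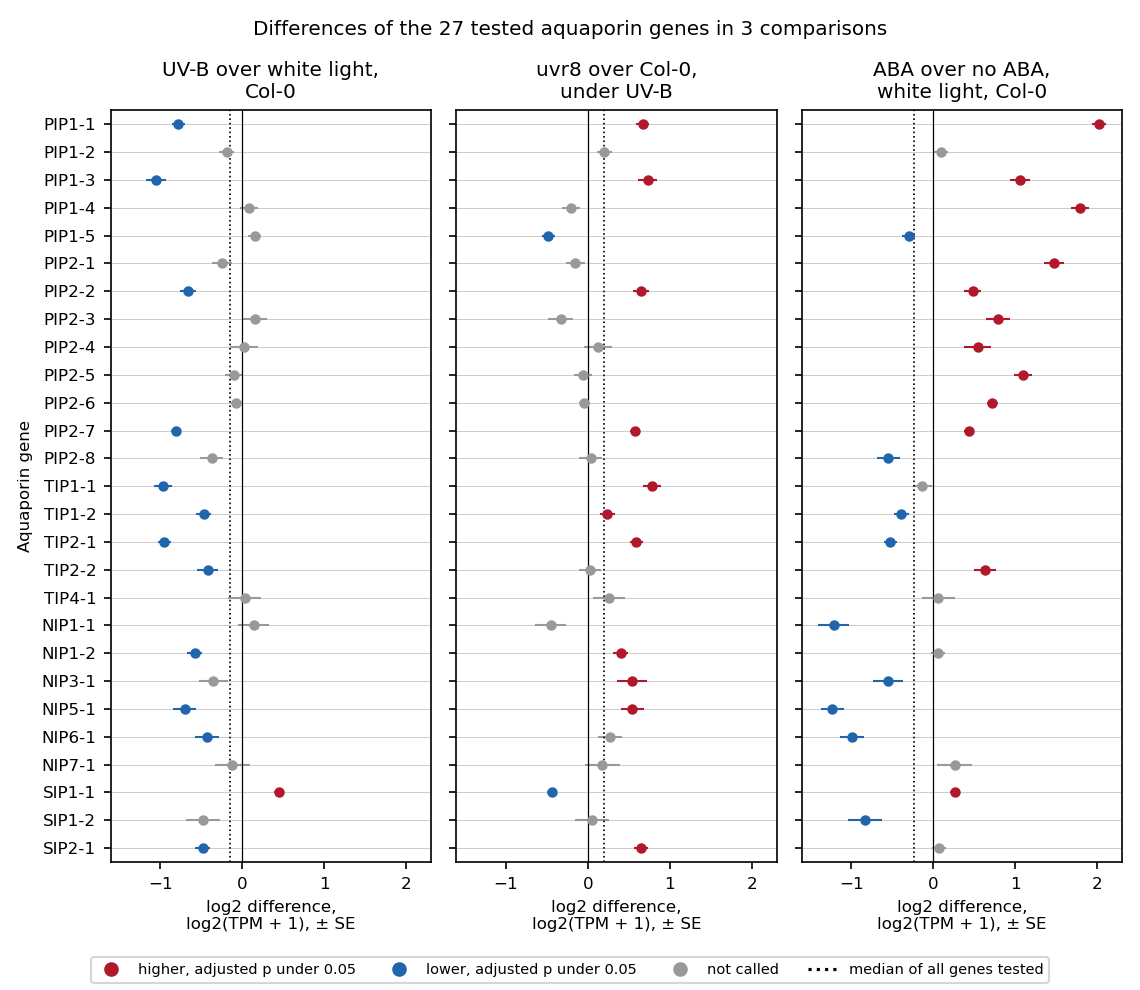
Log2 difference ± SE of the 27 tested aquaporin genes in UV-B over white light, uvr8 over Col-0 under UV-B and ABA over mock, with coloured points where the adjusted p is under 0.05 and a dotted line at the median of all genes. PIP1-1, PIP1-4 and PIP2-1 stand farthest right with ABA, and SIP1-1 is the only member right of 0 among the UV-B calls.

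Setting uvr8 beside Col-0, both under UV-B, asked how the members stood under UV-B in the photoreceptor mutant. It shares the Col-0 UV-B libraries with the comparison above, so opposite signs between the 2 sets of values are partly built in. In uvr8, 11 of 27 members (40.7%) were higher and 2 (7.4%) lower than in Col-0, against 32.8% and 11.1% of all genes. The share of higher members was near that of all genes, and the median member difference of 0.20 equalled the median of all genes. After recentring, 7 members were higher and 6 lower, against 18.1% and 19.3% of all genes, and 9 calls held on both scales.

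TIP1-1 had 517, 428 and 389.9 TPM in uvr8, against 286, 245 and 239.9 TPM in Col-0, with a log2 difference of 0.78 ± 0.11 (adjusted p = 0.000185). PIP1-3 had 104, 98.5 and 109.6 TPM in uvr8, against 52.9, 73.5 and 62.3 TPM in Col-0, with a log2 difference of 0.73 ± 0.12 (adjusted p = 0.000461). PIP1-1 had 148, 138 and 159 TPM in uvr8, against 101, 88.0 and 88.2 TPM in Col-0, with a log2 difference of 0.67 ± 0.08 (adjusted p = 2.38e-05). In all of these genes the uvr8 libraries lay above the Col-0 libraries. PIP2-2 (AT2G37170, chr2:15613368-15615022, minus strand) had 104, 94.2 and 122 TPM in uvr8, against 69.1, 71.4 and 61.2 TPM in Col-0, with a log2 difference of 0.65 ± 0.10 (adjusted p = 0.000226). SIP2-1 (AT3G56950, chr3:21078297-21079925, minus strand) had 27.9, 23.5 and 28.6 TPM in uvr8, against 17.6, 15.9 and 16.1 TPM in Col-0, with a log2 difference of 0.65 ± 0.09 (adjusted p = 0.00015). TIP2-1 and PIP2-7 were higher as well, at 0.59 ± 0.08 and 0.58 ± 0.06. These 7 genes passed on both scales.

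The 2 genes that were lower in uvr8 also passed on both scales. SIP1-1 (AT3G04090, chr3:1071984-1074244, minus strand) had 81.3, 86.0 and 85.5 TPM in uvr8, against 117, 116 and 112 TPM in Col-0, with a log2 difference of -0.44 ± 0.06 (adjusted p = 0.000109). PIP1-5 (AT4G23400, chr4:12220641-12222468, plus strand), a leaf plasma membrane channel, had 56.5 ± 3.6 TPM in uvr8 and 79.4 ± 5.7 TPM in Col-0 (SD, n = 3 each), with a log2 difference of -0.48 ± 0.08 (adjusted p = 0.000444). NIP1-2, NIP3-1, NIP5-1 and TIP1-2 were higher on the deposited scale at 0.40, 0.54, 0.54 and 0.24, and none of the 4 passed after recentring. The TIP1-2 call, at an adjusted p of 0.0469, was also lost without any single library of either group and without white-light replicate 1 or 2 (0.0508 to 0.115), with no filter on low values (0.0787) and with no mean-variance trend (0.0714). The NIP3-1 call was lost in a fit of the 2 groups alone (0.0685) and without Col-0 UV-B replicate 2 or 3 or uvr8 replicate 3 (0.0772 to 0.106), and a stretch of 229 bases of this gene has a copy of 97.4% identity at another locus. After recentring, PIP1-4, PIP2-3, PIP2-6 and NIP1-1 passed as lower in uvr8.

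Several abundant members did not pass in this comparison on the deposited scale. PIP1-2 had 497, 484 and 457 TPM in uvr8, against 439.8, 405 and 405 TPM in Col-0. PIP2-1 (AT3G53420, chr3:19803473-19805730, minus strand) had 295, 262 and 335 TPM in uvr8, against 312, 383 and 294 TPM in Col-0. PIP2-6 had 364, 375 and 428 TPM in uvr8, against 397, 409 and 389 TPM in Col-0. The ranges of PIP2-1 and PIP2-6 overlapped, and those of PIP1-2 did not, at a difference of 0.20 ± 0.09 (adjusted p = 0.0909). PIP1-4 (AT4G00430, chr4:185285-187680, minus strand) had 196, 162 and 155 TPM in uvr8, against 217, 186 and 185 TPM in Col-0, and these overlapped. Among the NIPs, NIP5-1 and NIP1-2 did pass on that scale, as given above. NIP5-1 had 5.55, 5.51 and 4.31 TPM in uvr8, against 3.06, 3.27 and 3.28 TPM in Col-0, and NIP1-2 had 37.5, 39.8 and 43.3 TPM in uvr8, against 31.8, 28.8 and 30.2 TPM in Col-0, both without overlap. NIP1-1 (AT4G19030, chr4:10421521-10423508, minus strand) had 1.80, 2.81 and 1.88 TPM in uvr8, against 2.84, 3.35 and 3.70 TPM in Col-0, and did not pass at -0.45 ± 0.19 (adjusted p = 0.0773).

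The uvr8 libraries under UV-B were also set against Col-0 in white light. Of 27 members, 0 were higher and 3 (11.1%) lower, while 3.83% of all genes were higher and 1.28% lower. The median member difference was -0.16, against 0.036 for all genes, and -0.21 against -0.015 after recentring. TIP2-1 had 561, 546 and 591 TPM in uvr8 under UV-B, against 739, 704 and 727 TPM in white light, with a log2 difference of -0.35 ± 0.08 (adjusted p = 0.0216). PIP2-7 had 577, 586 and 589.7 TPM in uvr8 under UV-B, against 714, 676 and 677 TPM in white light, with a log2 difference of -0.24 ± 0.06 (adjusted p = 0.0347). PIP1-5 had 56.1, 53.2 and 60.3 TPM in uvr8 under UV-B, against 76.3, 70.9 and 67.1 TPM in white light, with a log2 difference of -0.33 ± 0.08 (adjusted p = 0.0336). The groups did not overlap in any of these genes, but the 3 calls were not stable. All 3 were lost without white-light replicate 1 or 2 or uvr8 replicate 1 or 2, 1 remained without white-light replicate 3 or Col-0 UV-B replicate 3, and 2 without uvr8 replicate 3, with the lost calls at adjusted p-values of 0.0525 to 0.163. The PIP1-5 and PIP2-7 calls were also lost with the replicate number as a block (0.0626 and 0.0613) and with no mean-variance trend (0.0589 and 0.0829). After recentring, 0 members were higher and 2 lower, against 3.12% and 2.32% of all genes, and PIP2-7 was the one lost (adjusted p = 0.0706). The other 24 members stood between -0.43 and 0.29 and did not pass, with SEs of up to 0.21.

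The ABA comparison asked how the members stood 3 h after the hormone was given. PIP transcripts were raised with ABA across most of the subfamily, while the boric acid channels NIP5-1 and NIP6-1 fell. Of 27 members, 12 (44.4%) rose and 9 (33.3%) fell, against 15.2% and 39.4% of all genes. Of the 13 PIPs, 10 rose and 2 fell, with a median difference of 0.72 against -0.24 for all genes. After recentring, 15 members were higher and 4 lower, against 24.2% and 21.3% of all genes, and the PIPs then stood at 11 higher and 0 lower. In all, 16 calls held on both scales.

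**Figure D3:**
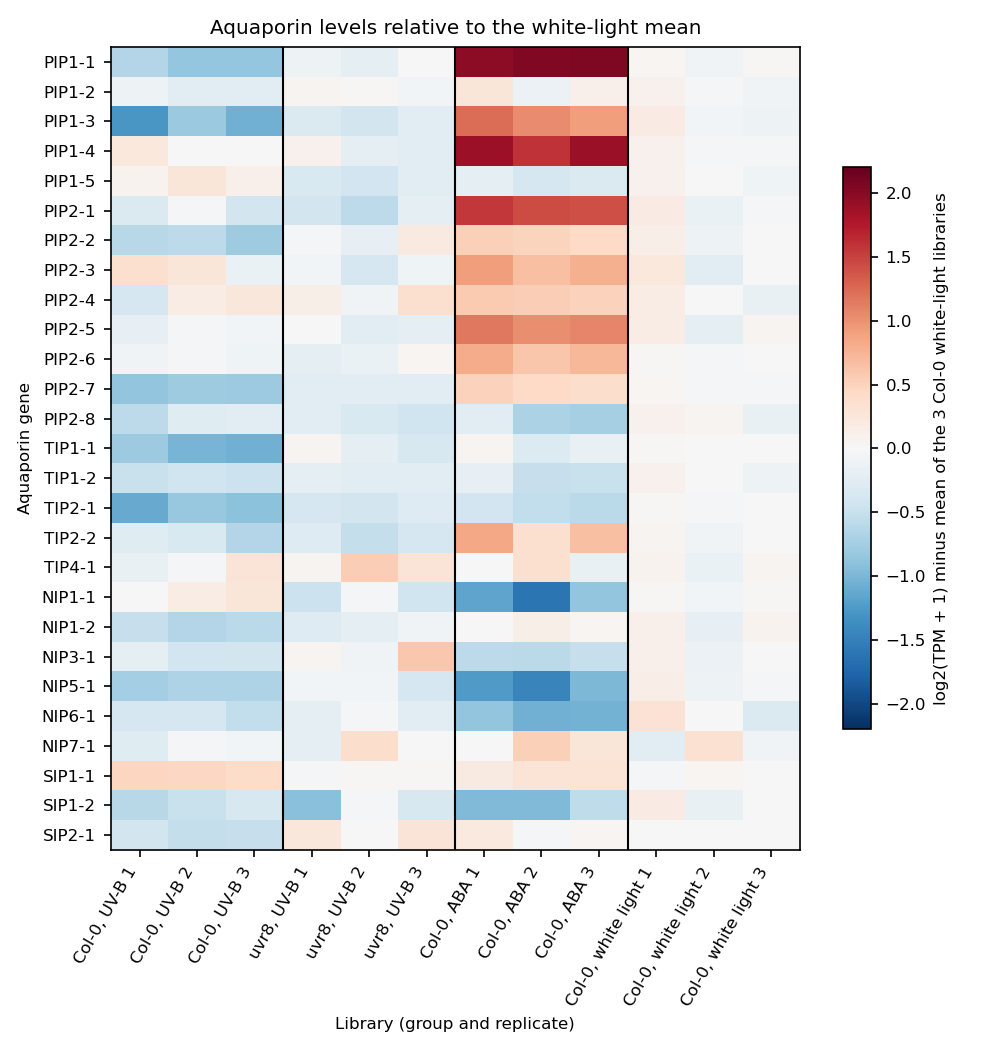
Level of the 27 tested aquaporin genes in each of the 12 libraries as log2(TPM + 1) minus the mean of the 3 white-light libraries, red above and blue below that mean. PIP1-1, PIP1-4 and PIP2-1 are darkest red in all 3 ABA libraries, and NIP5-1, NIP1-1 and NIP6-1 are blue there.

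PIP1-1 had 629, 660.1 and 664 TPM with ABA, against 164, 152 and 163 TPM in white light, a ratio of means of 4.08 and a log2 difference of 2.02 ± 0.08 (adjusted p = 2.15e-09). PIP1-4, which passes carbon dioxide and hydrogen peroxide, had 681, 560.2 and 696 TPM with ABA, against 196, 179 and 179.9 TPM in white light, a ratio of 3.49 and a log2 difference of 1.79 ± 0.11 (adjusted p = 9.87e-08). PIP2-1, a water channel known from guard cells and veins, had 1151, 1058 and 1037 TPM with ABA, against 441, 349.8 and 381 TPM in white light, a ratio of 2.77 and a log2 difference of 1.47 ± 0.12 (adjusted p = 1.09e-06). Every ABA library was above every white-light library in these genes, whose upstream stretches are printed above. PIP1-3 had 305, 269 and 248 TPM with ABA, against 147, 125 and 119.7 TPM in white light, with 1.06 ± 0.12 on the log2 scale. PIP2-5, known for its response to drought and cold, rose by 1.09 ± 0.11. The abundant PIP2-7 had 981, 934 and 896 TPM with ABA, against 714, 676 and 677 TPM in white light, with a log2 difference of 0.44 ± 0.06 (adjusted p = 4.78e-05). PIP2-6 had 733, 639 and 696 TPM with ABA, against 422, 411 and 418 TPM in white light, with a log2 difference of 0.72 ± 0.07 (adjusted p = 6.99e-06).

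PIP2-2 had 154, 149 and 145 TPM with ABA, against 116, 98.5 and 105 TPM in white light, with 0.48 ± 0.10 on the log2 scale. PIP2-3 and PIP2-4 rose by 0.79 and 0.54. The PIP2-4 call was lost without white-light replicate 3 (0.46, adjusted p = 0.0682). PIP1-2 was the PIP that did not pass, at 568, 436 and 515 TPM with ABA and 507, 466 and 451 TPM in white light, where the groups overlapped (0.09 ± 0.09, adjusted p = 0.446). PIP2-8 and PIP1-5 fell on the deposited scale by 0.55 and 0.30, and neither passed after recentring, at adjusted p-values of 0.104 and 0.736.

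On the deposited scale the NIPs moved downward or did not pass. NIP5-1 had 1.89, 1.49 and 2.42 TPM with ABA, against 6.56, 5.30 and 5.67 TPM in white light, with a log2 difference of -1.23 ± 0.14 (adjusted p = 2.05e-05). NIP1-1, a channel linked to arsenite uptake, had 0.74, 0.28 and 1.14 TPM with ABA, against 2.97, 2.72 and 2.97 TPM in white light, with a log2 difference of -1.21 ± 0.19 (adjusted p = 0.000254). NIP6-1 fell by 0.99 ± 0.15. In each of these genes all ABA libraries lay under all white-light libraries, on both scales the call held, and at such low TPM the log2(TPM + 1) scale understates the change. NIP1-2, the most abundant NIP, did not pass on the deposited scale, at 46.3, 50.2 and 47.3 TPM with ABA and 49.5, 40.2 and 48.3 TPM in white light. After recentring it passed as higher (0.32, adjusted p = 0.034). NIP3-1 fell by 0.55 on the deposited scale, which was lost after recentring (adjusted p = 0.0752) and without white-light replicate 1 or 3 or ABA replicate 2 (0.0524 to 0.0649).

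The TIPs split. TIP2-2, a channel known mainly from root vacuoles, rose with ABA at 0.63 ± 0.13, while TIP1-1, with 520.4, 405 and 446 TPM with ABA and 508, 493 and 493 TPM in white light, did not pass at -0.13 ± 0.11. TIP2-1 had 539, 499 and 479 TPM with ABA, against 739, 704 and 727 TPM in white light, without overlap. TIP1-2 and TIP2-1 fell on the deposited scale at -0.39 ± 0.09 and -0.52 ± 0.08, and after recentring stood at -0.13 and -0.26 without passing. Among the SIPs, SIP1-1 rose to 96.2, 104 and 104 TPM with ABA, against 81.2, 87.0 and 84.0 TPM in white light, with a log2 difference of 0.27 ± 0.06 (adjusted p = 0.00261). SIP1-2 fell by 0.83 ± 0.21, and SIP2-1, with 27.2, 22.8 and 24.1 TPM with ABA and 23.4, 23.5 and 23.4 TPM in white light, did not pass at 0.07 ± 0.09. After recentring, PIP1-2, NIP1-2 and SIP2-1 passed as higher with ABA, at recentred differences of 0.34, 0.32 and 0.32.

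UV-B set directly against ABA in Col-0 tests the difference between the 2 treatments, whose separate comparisons share the white-light libraries. Under UV-B, 16 of 27 members (59.3%) were lower and 5 (18.5%) higher than with ABA, against 23.9% and 32.1% of all genes. PIPs made up 11 of the 16, and after recentring the counts were 16 lower and 4 higher, against 28.9% and 28.8% of all genes. PIP1-1 had a UV-B minus ABA difference of -2.80 ± 0.08 (adjusted p = 7.93e-11), PIP1-3 of -2.11 ± 0.12, PIP2-1 of -1.72 ± 0.12 and PIP1-4 of -1.71 ± 0.11. NIP1-1 stood at the other end, with 2.84, 3.35 and 3.70 TPM under UV-B, against 0.74, 0.28 and 1.14 TPM with ABA, and a log2 difference of 1.35 ± 0.19 (adjusted p = 8.08e-05). NIP5-1, NIP6-1 and PIP1-5 were also higher under UV-B, at 0.53, 0.56 and 0.45.

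Each treatment's own difference from white light is set beside the other here, with the white-light libraries shared. On the log2 scale PIP1-1 stood at -0.78 under UV-B and 2.02 with ABA, PIP1-3 at -1.05 and 1.06, PIP2-2 at -0.66 and 0.48, and PIP2-7 at -0.81 and 0.44. The tonoplast channel TIP2-2 also stood at opposite signs, at -0.42 and 0.63, with the UV-B call lost after recentring. The direct difference passed in all of these, and PIP2-2, PIP2-7 and TIP2-2 stood at -1.14, -1.26 and -1.04 there. The tonoplast channel TIP2-1 stood at -0.95 under UV-B and -0.52 with ABA, and TIP1-2 at -0.47 and -0.39. With ABA neither passed after recentring, at -0.26 for TIP2-1 and -0.13 for TIP1-2. In the direct comparison TIP2-1 differed between the treatments (-0.43 ± 0.08, adjusted p = 0.000497) and TIP1-2 did not pass (-0.08 ± 0.09, adjusted p = 0.484). NIP5-1 stood at -0.70 under UV-B and -1.23 with ABA. SIP1-1 stood at 0.45 under UV-B and 0.27 with ABA, and its UV-B minus ABA difference of 0.18 ± 0.06 (adjusted p = 0.0239) was lost after recentring (0.336), in a fit of the 2 groups alone (0.09) and without UV-B replicate 1 or 2 or ABA replicate 1 (0.0562 to 0.0906). PIP1-2 passed at -0.27, lost in a fit of the 2 groups alone (0.0634) and without UV-B replicate 2 or 3 or ABA replicate 1 or 3 (adjusted p 0.0631 to 0.0951), and its groups overlapped. PIP2-4 was lost without UV-B replicate 1 (-0.34, adjusted p = 0.0784).

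Summed by subfamily, the shares of plasma membrane and tonoplast members differed between the groups. All 35 members together made up 0.403% of the summed TPM of a library in Col-0 under UV-B, 0.488% in uvr8 under UV-B, 0.747% with ABA and 0.562% in white light. The PIP sum was 2126 ± 82 TPM under UV-B, 2415 ± 86 TPM in uvr8, 5132 ± 266 TPM with ABA and 2715 ± 150.4 TPM in white light (SD, n = 3 each). The TIP sum was 1711 ± 37 TPM under UV-B, 2276 ± 78 TPM in uvr8, 2143 ± 241 TPM with ABA and 2712 ± 124 TPM in white light. PIPs therefore held 68.8% of the family's TPM with ABA, against 48.4% in white light, and TIPs held 28.7% with ABA, against 48.4% in white light. In Col-0 under UV-B the PIP and TIP shares were 52.9% and 42.6%, and in uvr8 they were 49.6% and 46.8%.

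The PIP sum was larger with ABA in both of its branches, with a PIP1 sum of 2134 ± 137 TPM with ABA, against 1022 ± 61 TPM in white light, and a PIP2 sum of 2998 ± 152 TPM, against 1694 ± 93 TPM. The NIP sum was 48.2 ± 1.6 TPM under UV-B, 62.0 ± 3.2 TPM in uvr8, 58.8 ± 1.7 TPM with ABA and 70.4 ± 6.5 TPM in white light. The SIP sum was 134 ± 3 TPM under UV-B, 114 ± 3 TPM in uvr8, 128 ± 3 TPM with ABA and 112 ± 2 TPM in white light, carried mostly by SIP1-1. With 3 libraries in a group an exact permutation test of a sum cannot go below 0.10, so the sums are given as a description.

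**Figure D4:**
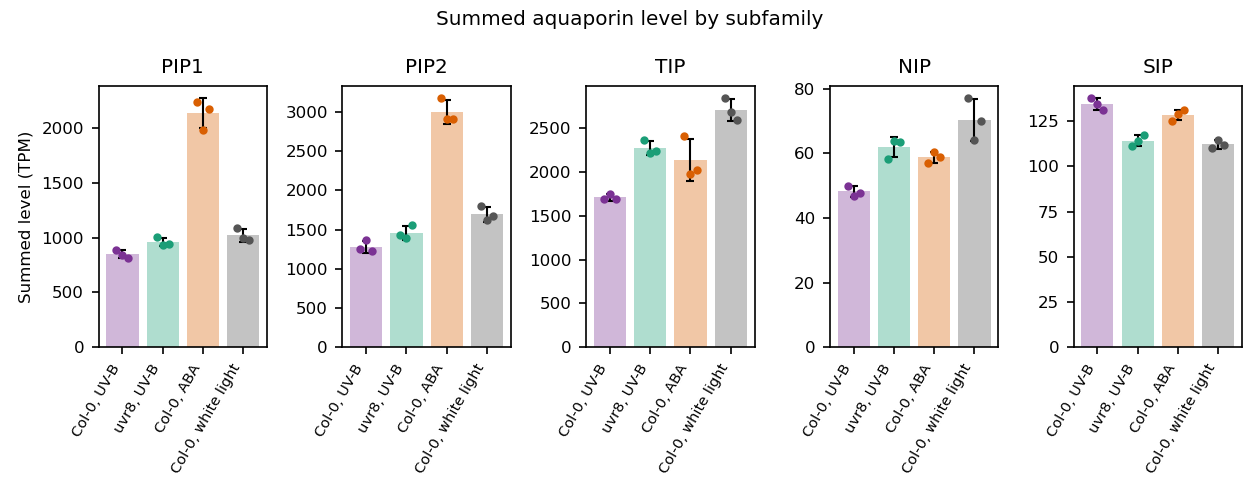
Summed TPM of the PIP1, PIP2, TIP, NIP and SIP members in each of the 4 groups, with bars at the mean, error bars of 1 SD and a point per library. The PIP1 and PIP2 bars are tallest with ABA, the TIP and NIP bars are tallest in white light, and the SIP bar is tallest under UV-B.

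Levels of close relatives were also set against each other. Each member was paired with the member with which it shares most identical bases in a single alignment of their transcripts. Measured were the 7 pairs that chose each other and had both members tested. TIP2-2 with TIP2-3, TIP3-1 with TIP3-2 and NIP4-1 with NIP4-2 also chose each other, but were left out by the filter on low values. By shared bases PIP1-1 was paired with PIP1-3 (81.8% over 859 bases), although it matches PIP1-2 at 87.2% over a shorter stretch of 779 bases. Ratios of TPM within a library do not depend on the library's scaling. PIP2-2 and PIP2-3 lie 2612 bases apart on opposite strands of chromosome 2 and match at 90.7% of 988 aligned bases. Their ratio was 1.07 ± 0.12 in Col-0 under UV-B, 2.12 ± 0.19 in uvr8, 1.52 ± 0.12 with ABA and 1.88 ± 0.16 in white light (SD, n = 3 each). Reads shared between so similar genes could be split between them in counting.

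The TIP1-1 to TIP1-2 ratio, with 81.3% identity over 770 bases, was 0.247 ± 0.027 under UV-B, 0.362 ± 0.049 in uvr8, 0.414 ± 0.018 with ABA and 0.346 ± 0.022 in white light. The PIP2-7 to PIP2-8 ratio was 24.2 to 29.4 under UV-B, 34.5 to 41.2 in uvr8, 58.8 to 78.7 with ABA and 32.6 to 38.4 in white light. The NIP1-1 to NIP1-2 ratio was 0.109 ± 0.018 under UV-B, 0.054 ± 0.015 in uvr8, 0.0152 ± 0.0093 with ABA and 0.0631 ± 0.0040 in white light. Of the 7 pairs, 6 lay clear of the white-light range in Col-0 under UV-B, 6 with ABA and 1 in uvr8. PIP1-1 to PIP1-3, the pair clear in uvr8, overlapped white light under UV-B (1.2 to 1.91 against 1.11 to 1.36). NIP5-1 to NIP6-1 overlapped white light with ABA (0.29 to 0.465 against 0.441 to 0.615). SIP1-1 to SIP1-2 stood at 32.9 to 44.1 under UV-B, 37.0 to 56.0 with ABA and 15.2 to 22.0 in white light. The pairs were formed by sequence and kept only where both members passed the filter on low values. The ratios are given as a description, without a test or a matching share over other gene pairs.

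**Figure D5:**
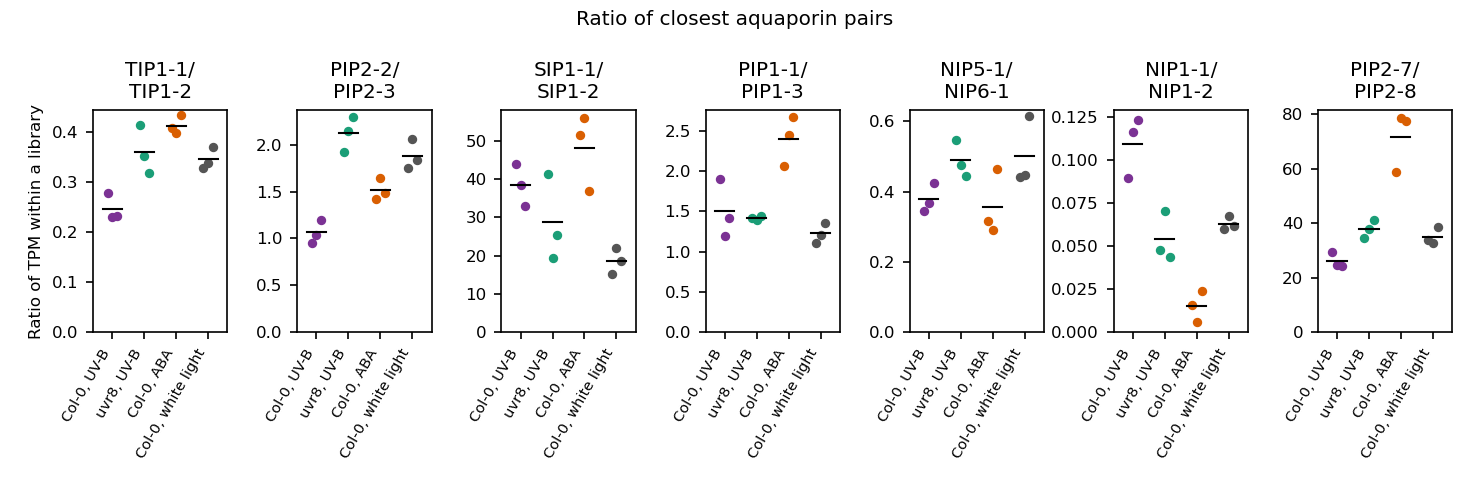
Ratio of TPM within a library for 7 pairs of closest aquaporin relatives, with a point per library and a bar at the mean of 3 libraries in each of the 4 groups. The ratio of PIP2-2 to PIP2-3 is lowest in Col-0 under UV-B (1.07 on average), and that of PIP2-7 to PIP2-8 is highest with ABA (58.8 to 78.7).

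Genes known to act on aquaporins were read beside them. Of 11 regulators and partners tested, 7 fell and 1 rose under UV-B, 5 were higher and 1 lower in uvr8 than in Col-0 under UV-B, and 4 rose and 4 fell with ABA. After recentring these counts were 4 lower and 2 higher, then 4 higher and 2 lower, then 5 higher and 1 lower. Over all genes, 27.8% were lower and 12.3% higher under UV-B, 32.8% higher and 11.1% lower in uvr8, and 15.2% higher and 39.4% lower with ABA. After recentring, the shares over all genes were 17.4% and 18.8%, 18.1% and 19.3%, and 24.2% and 21.3%, in the same order. TSPO, an ABA-induced membrane protein that takes PIP2-7 to degradation, had 125 ± 21 TPM with ABA and 1.68 ± 1.20 TPM in white light (SD, n = 3 each), a log2 difference of 5.66 ± 0.32 (adjusted p = 5.18e-08). UBC32, a ubiquitin-conjugating enzyme of the endoplasmic reticulum, had 80.9 ± 8.0 TPM with ABA and 26.8 ± 1.3 TPM in white light, a difference of 1.56 ± 0.08. The ubiquitin ligases RMA2 and RMA3 fell under UV-B by 1.00 ± 0.17 and 0.92 ± 0.23, and in uvr8 under UV-B they stood higher than in Col-0 by 1.22 and 0.83.

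Boron exporters, which act with the NIP channels, moved in both directions. Of 4 tested of 7, 1 rose and 1 fell under UV-B, and 1 rose and 2 fell with ABA. BOR5 rose to 8.33 ± 1.03 TPM under UV-B, against 3.04 ± 0.48 TPM in white light, and BOR3 fell to 16.9 ± 1.5 TPM under UV-B, against 33.1 ± 1.2 TPM. BOR1 fell to 3.82 ± 0.59 TPM with ABA, against 8.37 ± 0.32 TPM in white light. Of the plasma membrane proton pumps, 6 of 11 were tested, of which 2 fell under UV-B and 3 rose with ABA. AHA2 fell to 259 ± 29 TPM under UV-B, against 474 ± 21 TPM in white light, and AHA11 rose to 71.4 ± 12.5 TPM with ABA, against 43.9 ± 2.5 TPM. Of 4 vacuolar pump genes, 2 fell under UV-B and 1 rose with ABA, or 3 after recentring. The shares over all genes given for the regulators apply to these lists too. With so few genes in a list, these counts carry no statement about the list.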

How the data were processed

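RNA-seq of 12 whole-seedling libraries was analysed from the authors' deposited tables of TPM per gene, a unit read from values that sum to 998197.5 to 998680.8 per library. The build was TAIR10, per the submitters' processing notes. Neither aligner nor counter, nor any use of strand, is named in the labels. TPM keeps no read depth, so precision rests on the spread between replicates.

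The 35 members were taken by locus identifier. The members, the lists and the comparisons were chosen with earlier results of these data known. A gene was tested if 3 or more libraries held 1 TPM or more of it (19922 genes). R 4.3.3 and limma 3.58.1 were run on log2(TPM + 1), with 1 mean per group and the spread moderated along a trend in mean level. P-values were adjusted over all genes by the method of Benjamini and Hochberg (threshold 0.05). Differences on this scale understate the change of low genes. The scripts were tested on simulated data, and 0 of 66 library pairs held identical values. The labels call the replicates independent from germination onward.

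Alternatives were a trimmed-mean scaling, a pseudocount of 0.1, no filter, no trend, only the 2 groups compared, a replicate block and each library left out.

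Values of every library are given for the 5 most abundant members, the most abundant of PIP1, PIP2, TIP, NIP and SIP, and the 5 largest differences past the threshold in each comparison. Of each list, at most the 2 largest per comparison are named. Sequences and annotation came from RefSeq TAIR10.1, whose coordinates are its own. Closest relatives were found with BLAST+ 2.17.0. Tables were handled in Python 3.11.15 with pandas 2.3.3, and figures drawn with matplotlib 3.10.9.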

Additional observations from a re-analysis of the deposited data

How the results depend on the processing

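Over the 5 comparisons, 71 member differences passed the threshold, 53 of them under every one of the 18 alternatives, and 0 changed sign as a call. The trimmed-mean scaling gave 2 members higher under UV-B, 7 higher and 6 lower in uvr8 against Col-0 under UV-B, and 4 lower with ABA. Leaving out each library in turn gave 1 to 1 higher and 10 to 13 lower members under UV-B, 9 to 12 higher and 2 to 3 lower in uvr8 against Col-0 under UV-B, 11 to 12 higher and 8 to 9 lower with ABA, and 4 to 5 higher and 15 to 16 lower under UV-B against ABA. Against Col-0 in white light, the same leave-outs for uvr8 gave 0 higher and 0 to 3 lower, and 1 lower, TIP2-1, was left with no trend and 1, also TIP2-1, with the replicate block. Over 18 pairs of libraries with the same replicate number the correlation of deviations ran between -0.132 and 0.256, with 7 over 0.1. Between libraries with different numbers it ran between -0.294 and 0.311. Of the 12 libraries, 6 correlated best with their own number. These values do not settle whether the numbers pair the libraries, and the main fit used no replicate block.

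On the trimmed-mean scale the summed TPM in Col-0 under UV-B, uvr8 under UV-B, ABA and white light was 2246.1, 2180.5, 5755.4 and 2548.9 for PIPs, 1807.9, 2051.8, 2400.6 and 2545.0 for TIPs, and 141.8, 103.1, 144.1 and 105.1 for SIPs. For NIPs it was 50.9 under UV-B, 55.9 in uvr8, 66.1 with ABA and 66.2 in white light, so the lower NIP sum with ABA on the deposited scale (58.8 against 70.4) was not seen after recentring. Other orders changed too. The PIP sum of Col-0 under UV-B lay under that of uvr8 on the deposited scale (2126.1 against 2415.3) and above it after recentring. The TIP sum of uvr8 lay above that with ABA (2275.7 against 2142.7) and then under it. The SIP sum was largest under UV-B (134.4 against 128.3 with ABA) and then largest with ABA. With 1 library left out, the sums ran between 2089.2 and 2169.9, 2375.5 and 2461.0, 4990.1 and 5253.1, and 2629.5 and 2768.9 for PIPs in the same order of groups. For TIPs they ran between 1690.0 and 1722.6, 2231.2 and 2304.2, 2004.4 and 2224.0, and 2646.5 and 2769.0. For NIPs they ran between 47.3 and 48.9, 61.0 and 63.8, 58.0 and 59.6, and 67.1 and 73.6, and for SIPs between 132.8 and 136.0, 112.6 and 115.7, 127.0 and 129.8, and 110.9 and 113.2. Read depth cannot be had from TPM, so members under about 1 TPM are limited by an unknown number of reads.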
